A study of Homo sapiens with 2 samples.

Results

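Cholesterol synthesis, uptake and efflux genes were followed in a human lung adenocarcinoma cell line, H1944, with and without knockdown of USP12, which encodes a deubiquitinase. The 30 genes were taken by name from a list of the pathway, and all 30 were found among the 59125 rows that carried a count. The list was chosen with earlier results of these data known, so shares set beside those of all rows are a description. They comprised 19 enzymes of sterol synthesis, with GGPS1 of the isoprenoid branch counted among them. A further 4 genes control the transcription factor SREBP-2, and 4 belong to sterol transport and related SREBP targets. The remaining 3 are targets of the liver X receptors (LXR) that act in efflux or limit uptake. The list does not hold every gene of the pathway. All 30 had a mean of at least 1 CPM (counts scaled to a common library size) over the libraries and passed the filter on low values, as did 14612 rows in all. The lowest count of any of the 30 was 103 and the highest was 11712.

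The study sequenced mRNA of cells that carried a lentiviral short hairpin, either the control (shCON) or 1 against USP12 (shUSP12). There was 1 library per group, with 18249112 counts in shCON and 17475359 in shUSP12. No difference therefore has a replicate check, no p-value was computed, and every comparison is of these 2 libraries. Which of the hairpin sequences of the study was used for the library is not given by the labels, nor whether the cells were a pool or a clone. The control is named shGFP in the methods, whereas the column of control counts carries the name SHRFP. Levels are given in CPM after scaling by trimmed mean of M values (TMM). The log2 ratio of shUSP12 over shCON is given with a 95% interval that covers counting error alone. A gene was called lower or higher where that ratio passed 2-fold. Fewer cells that express a gene and less RNA per cell cannot be told apart in such libraries.

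USP12 followed the labels. It had 711 counts in shCON and 219 in shUSP12, which left 29.3% of the control level (95% interval 25.1% to 34.2%). The libraries also differed in ways the knockdown label does not name. Of 6 epithelial markers, KRT8 and KRT18 were lower in shUSP12 and 4 were higher, and KRT19 had 32 counts in shCON and 4452 in shUSP12. EPCAM had 115 and 1566 counts, and the summed epithelial level was 7144 CPM in shCON and 6076 CPM in shUSP12. Among 5 lung lineage markers, NKX2-1 had 0 counts in shCON and 312 in shUSP12, whereas SFTPA1 and SFTPB had 0 in both. Of 4 fibroblast markers, 3 were lower in shUSP12, and their sum was 160 CPM in shCON and 88.5 CPM in shUSP12. The 6 leukocyte markers summed to 1.38 and 2.57 CPM, the 3 endothelial markers to 0.803 and 1.26 CPM, and the 4 hepatocyte markers to 0.115 and 0.055 CPM. Of 12 Y-linked genes, 10 had 0 counts in shCON and between 27 and 749 in shUSP12. Rows nearly unread in the control (3 counts or fewer) but read 50 times or more after knockdown numbered 119, and 1 row showed the opposite. None of the 30 sterol genes was among them. Whether both libraries came from the same cells was not tested. A difference between the cells and the knockdown cannot be told apart with these libraries, and every ratio below is one between the libraries as labelled.

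Cells build cholesterol from acetyl-CoA by way of mevalonate, farnesyl diphosphate, squalene and lanosterol. The genes of this route are switched on by SREBP-2, a membrane-bound transcription factor made from SREBF2. When sterols are scarce, the escort protein SCAP carries it from the endoplasmic reticulum to the Golgi, where it is cut and set free. When sterols are plentiful, INSIG proteins hold SCAP back. LXR work in the opposite sense, since oxysterols activate them and they raise genes that export cholesterol or limit its uptake.

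The sterol genes were lower in shUSP12 almost throughout. Of the 30 genes, 26 had a log2 ratio below 0, against 51.1% of all rows tested, and the median of the 30 was −0.57 against −0.01 for all rows. The interval lay below 0 for 24 genes, against 29.1% of rows, and above 0 for 4 genes, against 27.1%. Only INSIG1, MVD, LSS and MVK were called lower at 2-fold, against 3.01% of rows, and no gene was called higher, against 6.48%. In GENCODE 44 on GRCh38 these lie at chr7:155297776-155310235 (INSIG1, plus strand), chr16:88651935-88663161 (MVD, minus strand), chr21:46188141-46228824 (LSS, minus strand) and chr12:109573255-109598125 (MVK, plus strand). At 1.5-fold 15 genes were lower, against 9.11% of rows, and NPC2 was higher, against 11.9%. The genes were well expressed, with a median mean level of 81.4 CPM against 20.9 CPM for all rows. Among the 24 genes with a mean of at least 20 CPM, 14 were at least 1.5-fold lower, against 5.09% of the 7461 rows of that level, and 4 were at least 2-fold lower, against 0.992%. On the higher side the shares at that level were small throughout, with 1 of the 24 at least 1.5-fold higher, against 4.54%, and 0 at least 2-fold higher, against 1.65%. Summed over the 30 genes, the level was 4789 CPM in shCON and 2993 CPM in shUSP12.

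**Figure D1:**
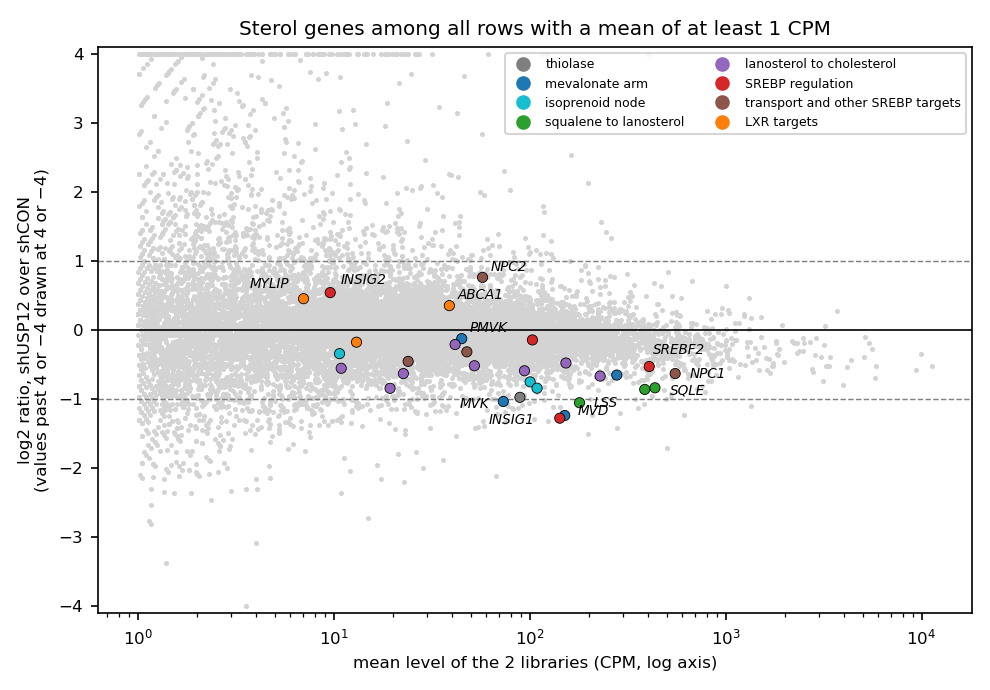
Each grey point is 1 of 14612 rows, with the mean level of the 2 libraries in CPM on a log axis and the log2 ratio of shUSP12 over shCON on the other. The sterol genes are coloured by role, dashed lines mark 2-fold, and 26 of the 30 lie below 0.

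The 19 enzymes of synthesis shared their sign. All 19 had a log2 ratio below 0, from −1.24 for MVD to −0.12 for PMVK, with a median of −0.66 and a middle range from −0.85 to −0.53. Together they had 54732 counts in shCON and 33496 in shUSP12, or 58.3% of the control level (log2 ratio −0.78, 95% interval −0.80 to −0.76). With scaling to total counts alone, which shifts the median of all rows by 0.13, the median of the enzymes was −0.53 and 18 of the 19 remained below 0. PMVK was the exception there, at 0.01.

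Along the route, the steps up to farnesyl diphosphate came first. ACAT2, the cytosolic thiolase that joins acetyl-CoA units, had 2063 counts (118 CPM) in shCON and 1103 counts (60.3 CPM) in shUSP12, for a log2 ratio of −0.97 (95% interval −1.08 to −0.87). HMGCS1, the synthase that makes HMG-CoA, had 5932 counts (340.3 CPM) and 3969 counts (217 CPM), a log2 ratio of −0.65 (95% interval −0.71 to −0.59). MVK, the mevalonate kinase, had 1720 counts (98.7 CPM) and 882 counts (48.2 CPM), a log2 ratio of −1.03 (95% interval −1.15 to −0.92). The enzyme after it stood apart. PMVK, the phosphomevalonate kinase, had 819 counts (46.99 CPM) and 790 counts (43.2 CPM), and its log2 ratio of −0.12 had an interval from −0.26 to 0.02 that included 0. MVD, the decarboxylase of the next step, had 3700 counts (212 CPM) and 1649 counts (90.1 CPM), a log2 ratio of −1.24 (95% interval −1.32 to −1.15). The neighbouring steps thus held the smallest and the largest difference among the enzymes. The count of MVD over that of PMVK was 4.52 in shCON and 2.09 in shUSP12. No scaling can change this ratio, which in shUSP12 was 46.2% of its value in shCON. Per length of exon, MVD over PMVK was 0.96 in shCON and 0.44 in shUSP12.

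Other enzymes act at or near the branch to isoprenoids. IDI1, the isopentenyl diphosphate isomerase, had 2200 counts in shCON and 1374 in shUSP12, and a log2 ratio of −0.75 (95% interval −0.85 to −0.65). FDPS, which makes farnesyl diphosphate, had 2443 and 1432 counts, a log2 ratio of −0.84 (95% interval −0.94 to −0.75). GGPS1 takes farnesyl diphosphate away from sterols, towards geranylgeranyl groups for proteins. Its 209 and 173 counts gave a log2 ratio of −0.34 (95% interval −0.64 to −0.05), and with total counts alone the interval ran from −0.51 to 0.09 and included 0. FDFT1, the squalene synthase, uses the same substrate for sterols and had 8694 and 5036 counts, a log2 ratio of −0.86 (95% interval −0.91 to −0.81). The count of FDFT1 over that of GGPS1 was 41.6 in shCON and 29.1 in shUSP12, or 69.98% of the control value (log2 −0.52, 95% interval −0.81 to −0.22).

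Of the squalene steps, SQLE and FDFT1 had the highest levels of all enzymes in both libraries. SQLE, the squalene epoxidase, had 9748 counts (559 CPM) in shCON and 5738 counts (314 CPM) in shUSP12, for a log2 ratio of −0.83 (95% interval −0.88 to −0.79). LSS, which closes the rings to give lanosterol, had 4229 counts (243 CPM) and 2143 counts (117 CPM), a log2 ratio of −1.05 (95% interval −1.13 to −0.98). With FDFT1, these genes summed to 54.3% of their control level, the lowest share of any step that held more than 1 gene.

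The 8 enzymes from lanosterol to cholesterol differed less, with a median log2 ratio of −0.57 and a summed level of 67.6% of control. DHCR7, the reductase that completes cholesterol in an arm of the route, had 4899 counts (281 CPM) and 3245 counts (177 CPM), a log2 ratio of −0.66 (95% interval −0.73 to −0.60). HSD17B7, the sterol ketoreductase, had the lowest ratio of the 8, with 435 and 254 counts and a log2 ratio of −0.84 (95% interval −1.08 to −0.62). MSMO1, the methyl oxidase, had 3109 and 2347 counts, a log2 ratio of −0.48, and NSDHL, which acts in the same demethylation, had 1073 and 788 counts, a log2 ratio of −0.51. EBP, the sterol isomerase, stood at −0.59 with 1972 and 1377 counts. TM7SF2, a sterol reductase, had 481 and 326 counts (log2 ratio −0.63, 95% interval −0.84 to −0.43). SC5D, the desaturase just before DHCR7, had 779 and 708 counts and differed least, at −0.21 (95% interval −0.36 to −0.06), and with total counts alone its interval from −0.22 to 0.07 included 0. CYP51A1, the lanosterol demethylase, had 227 and 162 counts, a log2 ratio of −0.55 with a wide interval from −0.86 to −0.26.

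**Figure D2:**
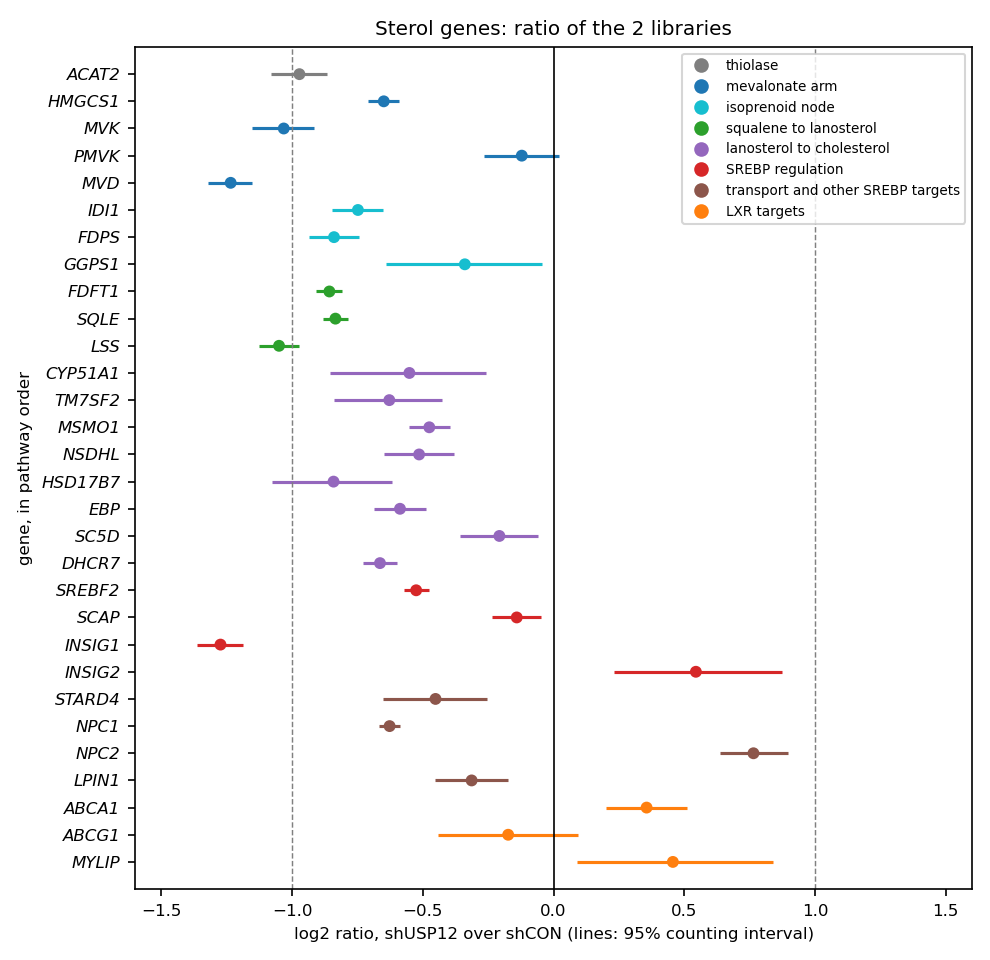
Log2 ratio of shUSP12 over shCON for the 30 sterol genes in pathway order, with lines for the 95% counting interval, colours for the role of each gene and dashed lines at 2-fold. The enzymes lie between −1.24 and −0.12, and INSIG2, NPC2, ABCA1 and MYLIP lie above 0.

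Levels of different genes were compared per length of exon, as TPM (length-scaled counts that sum to the same total in each library), without TMM factors. SQLE was the most abundant in both libraries, at 477 TPM in shCON and 297 TPM in shUSP12, followed by FDFT1 at 361 and 221 TPM. In shCON, NPC1 (254 TPM), EBP (235 TPM) and MSMO1 (230 TPM) came next. Of the 19 enzymes, 13 exceeded 100 TPM in shCON and 7 did so in shUSP12. These counts depend on the length used. With the longest transcript in place of all exons, ACAT2, MVD and FDPS stayed above 100 TPM in shUSP12, at 109, 114 and 115 TPM. NSDHL then fell below it in shCON, at 90.0 TPM. At the other end lay CYP51A1, with 11.5 TPM in shCON and 8.66 TPM in shUSP12, and GGPS1, with 11.6 and 10.1 TPM, so that the highest enzyme exceeded the lowest by 41.6 times in shCON and 34.3 times in shUSP12. The order of the genes changed little between the libraries, with a Spearman rho of 0.94 across the 30 genes, which share library and length. PMVK moved from rank 9 to rank 5, NPC2 from 18 to 9, and MVD from 10 to 15.

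**Figure D3:**
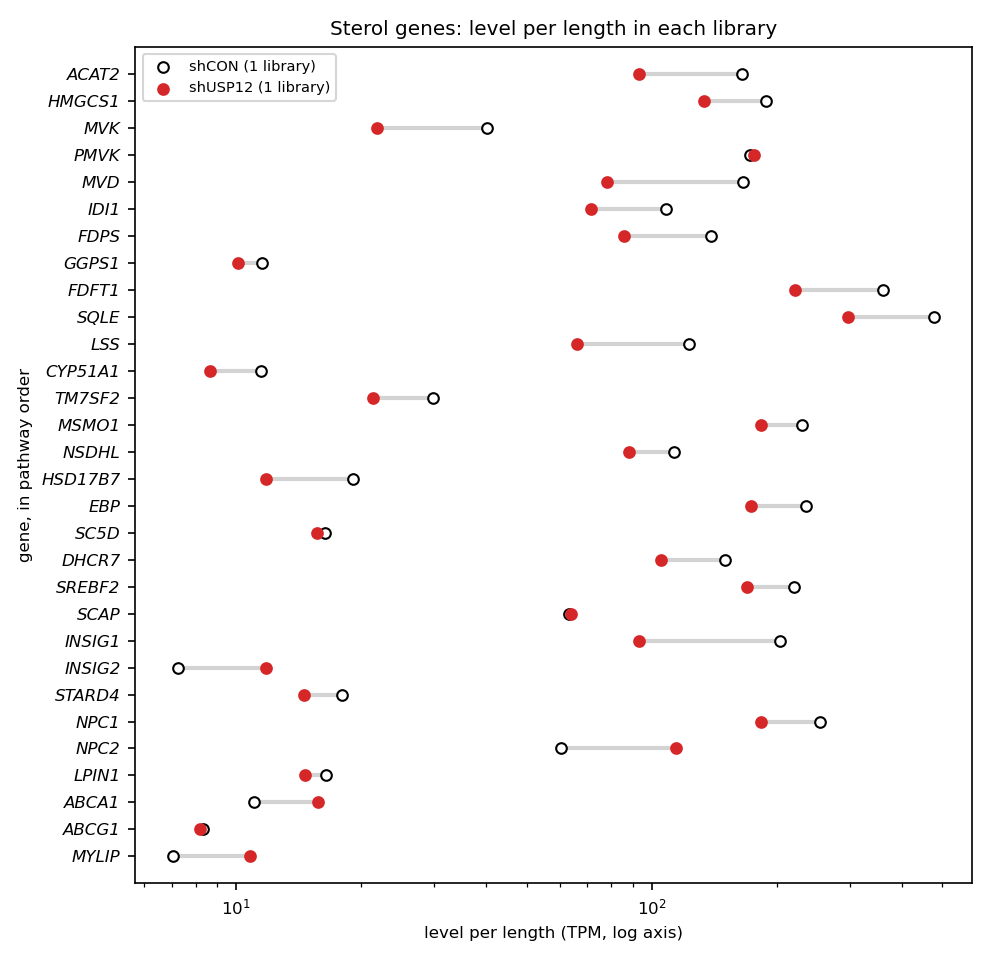
Level per length of each sterol gene in TPM on a log axis, with open points for the shCON library and red points for the shUSP12 library. Red lies left of open for most genes, SQLE is the rightmost in both libraries, NPC2, INSIG2, ABCA1 and MYLIP run the other way, and the points of PMVK, SCAP, SC5D and ABCG1 nearly coincide.

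The regulators of SREBP-2 differed among themselves. SREBF2 itself had 8395 counts (482 CPM) in shCON and 6121 counts (335 CPM) in shUSP12, for a log2 ratio of −0.53 (95% interval −0.57 to −0.48). SCAP, the escort, had 1891 counts (108 CPM) and 1800 counts (98.4 CPM), a log2 ratio of −0.14 (95% interval −0.24 to −0.05). With total counts alone that of SCAP was −0.01, with an interval from −0.10 to 0.09. INSIG1, an anchor of SCAP that is itself an SREBP target, had 3518 counts (202 CPM) and 1526 counts (83.4 CPM). Its log2 ratio of −1.27 (95% interval −1.36 to −1.19) was the lowest of all 30 genes, and 1.44% of the rows tested lay lower. INSIG2, the other anchor, ran the opposite way, with 136 counts (7.80 CPM) in shCON and 209 counts (11.4 CPM) in shUSP12, for a log2 ratio of 0.54 (95% interval 0.23 to 0.87). Per length, INSIG1 exceeded INSIG2 by 27.99 times in shCON and 7.90 times in shUSP12. Both anchors together had 1.93 times the counts of SCAP in shCON and 0.964 times in shUSP12. Per length they exceeded SCAP in both libraries, by 3.32 times in shCON and 1.65 times in shUSP12.

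Transport genes held the gene past 1.5-fold upwards, NPC2. With total counts alone, INSIG2 and MYLIP also passed 1.5-fold, for 3 of the 30 genes against 15.7% of rows. NPC1, the membrane protein that passes cholesterol out of lysosomes, had 11712 counts (672 CPM) in shCON and 7959 counts (435 CPM) in shUSP12, for a log2 ratio of −0.63 (95% interval −0.67 to −0.59). NPC2, the soluble lysosomal protein that hands cholesterol to NPC1, had 743 counts (42.6 CPM) and 1326 counts (72.5 CPM), a log2 ratio of 0.76 (95% interval 0.63 to 0.90). NPC1 lies at chr18:23506184-23586506 on the minus strand and NPC2 at chr14:74476192-74494177 on the minus strand. The partners thus differed in opposite directions, and NPC1 exceeded NPC2 per length by 4.20 times in shCON and 1.60 times in shUSP12. STARD4, a carrier of sterols in the cytosol, had 484 and 371 counts, a log2 ratio of −0.45 (95% interval −0.65 to −0.26). LPIN1, a phosphatidate phosphatase, had 925 and 781 counts, a log2 ratio of −0.31 (95% interval −0.45 to −0.18).

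The LXR targets were set against the enzymes next. ABCA1, which loads cholesterol onto apolipoproteins, had 596 counts (34.2 CPM) in shCON and 801 counts (43.8 CPM) in shUSP12, for a log2 ratio of 0.36 (95% interval 0.20 to 0.51). MYLIP, a ubiquitin ligase that removes lipoprotein receptors, had 103 counts (5.91 CPM) and 149 counts (8.14 CPM), a log2 ratio of 0.46 (95% interval 0.09 to 0.84). ABCG1, which exports cholesterol to lipoproteins, had 242 counts (13.9 CPM) and 225 counts (12.3 CPM), and its log2 ratio of −0.17 had an interval from −0.44 to 0.09 that included 0. The median of the 3 was 0.36, and none reached 1.5-fold, although MYLIP did with total counts alone, at 0.59. Their summed count was 941 in shCON and 1175 in shUSP12. Relative to the summed count of the enzymes, it was 2.04 times as high in shUSP12 as in shCON (95% interval 1.87 to 2.23), whatever the scaling. ABCA1 relative to SREBF2 was 1.84 times as high (95% interval 1.65 to 2.06).

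Because the enzymes were lower together, their promoters were searched for letters that SREBP-2 and its usual partners bind. RefSeq windows on GRCh38.p14, from 250 bases before to 50 bases after each annotated start, were on hand for 26 of the 30 genes. Both strands were read, a gene with several starts counted once, and matches of different motifs could share bases. The core of the sterol regulatory element, CACNCCAC, was found for 5 of the 26, namely INSIG1, SREBF2, IDI1, SC5D and ABCA1, and thus for 2 of 16 enzymes (12.5%), against 7.85% of 10465 genes with a mean of at least 1 CPM in these libraries and 7.05% of all 27305 genes. CCAAT, the box of the factor NF-Y, was found for 14 of 16 enzymes and for 19 of the 26 genes, against 43.0% and 39.7%. GGGCGG, a box of Sp1, was found for 25 of the 26, against 76.3% and 48.3%. These are matches of letters and not shown sites. Neither CACNCCAC nor CCAAT was found for NPC1, CYP51A1 and LPIN1, whose log2 ratios were −0.63, −0.55 and −0.31. The same held for SCAP, PMVK and INSIG2, at −0.14, −0.12 and 0.54. Of the 4 genes above 0 with a window, NPC2 and MYLIP held CCAAT.

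A few of these windows are printed to show how the letters lie, each from 250 to 51 bases before the start, 5′ to 3′ along the gene. Capitals mark CACNCCAC and CCAAT on either strand, so that CCAAT reads ATTGG on the other strand. SREBF2 (chr22:41832855-41833054, plus strand) holds both, 1 match each, and an exon of the antisense gene SREBF2-AS1 is annotated within it. LSS (chr21:46228825-46229024, minus strand), called lower at 2-fold, holds 1 CCAAT. MSMO1 (chr4:165327419-165327618, plus strand) holds 3 of them. SCAP (chr3:47475992-47476191, minus strand), whose level differed little, holds neither, and ABCA1 (chr9:104928206-104928405, minus strand), which was higher in shUSP12, holds the sterol core without CCAAT.
SREBF2: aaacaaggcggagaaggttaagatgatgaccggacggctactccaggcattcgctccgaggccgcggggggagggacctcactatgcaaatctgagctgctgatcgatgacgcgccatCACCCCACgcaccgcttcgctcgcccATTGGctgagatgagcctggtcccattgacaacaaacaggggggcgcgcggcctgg
LSS: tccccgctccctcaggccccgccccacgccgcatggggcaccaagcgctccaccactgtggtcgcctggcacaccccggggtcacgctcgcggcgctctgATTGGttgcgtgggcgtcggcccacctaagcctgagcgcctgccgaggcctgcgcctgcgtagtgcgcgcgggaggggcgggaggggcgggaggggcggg
MSMO1: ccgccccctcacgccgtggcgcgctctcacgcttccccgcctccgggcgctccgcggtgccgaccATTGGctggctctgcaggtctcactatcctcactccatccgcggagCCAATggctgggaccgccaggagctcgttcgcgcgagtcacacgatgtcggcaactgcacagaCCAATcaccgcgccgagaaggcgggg
SCAP: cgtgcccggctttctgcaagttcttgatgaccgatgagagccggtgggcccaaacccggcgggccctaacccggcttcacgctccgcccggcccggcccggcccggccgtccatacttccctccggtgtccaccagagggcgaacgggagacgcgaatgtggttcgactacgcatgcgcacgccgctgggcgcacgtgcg
ABCA1: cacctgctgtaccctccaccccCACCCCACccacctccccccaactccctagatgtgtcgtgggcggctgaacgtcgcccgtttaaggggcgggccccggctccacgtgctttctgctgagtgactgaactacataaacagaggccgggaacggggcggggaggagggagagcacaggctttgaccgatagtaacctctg
SREBF2 and ABCA1 thus share the letters of the sterol core, and their log2 ratios were −0.53 and 0.36.

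Some of the 30 genes overlap another gene on the opposite strand or their own. The libraries were stranded, but whether the counting used the strand is not given in the sources used here. CYP51A1 overlaps AKAP9, which had 321 counts in shCON and 401 in shUSP12, more than CYP51A1 itself, and its level is uncertain for that reason. ACAT2 overlaps TCP1, a chaperonin subunit with 6132 and 5342 counts, a log2 ratio of −0.27 that was smaller than that of ACAT2. GGPS1 overlaps ARID4B, with 373 and 438 counts, and TM7SF2 overlaps VPS51 on its own strand, with 1059 and 1099 counts. TCP1, ARID4B and VPS51 also had more counts than the sterol genes they overlap, in both libraries. The levels of ACAT2, GGPS1 and TM7SF2 are therefore uncertain too. NPC2 overlaps ISCA2 on the opposite strand. ISCA2 had 159 counts in shCON and 226 in shUSP12, and its log2 ratio of 0.43 (95% interval 0.14 to 0.74) was smaller than that of NPC2. MVK lies head to head with MMAB, an enzyme of cobalamin metabolism, which had 905 counts in shCON and 486 in shUSP12. Its log2 ratio of −0.96 (95% interval −1.13 to −0.81) was close to that of MVK. MMAB was chosen after its values were seen.

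Other genes of the pathway were read from lists. Of 4 other genes of sterol synthesis, 3 passed the filter and all lay below 0, from −1.05 for ERG28, a scaffold of the demethylation enzymes with 1797 and 908 counts, to −0.09 for ACAT1, the mitochondrial thiolase, with 710 and 698 counts. The enzymes that use isoprenoids for other ends did not share this. Of 13 genes for dolichol, ubiquinone and protein prenylation, 6 lay below 0 and 7 above, with a median of 0.00, and FNTB, a farnesyltransferase subunit, was lowest, at −0.51 from 124 and 91 counts. The 10 genes of SREBP processing and sterol sensing had a median of 0.02, with SREBF1 lowest, at −0.68 from 4791 and 3145 counts, and PAQR3 highest, at 0.46 from 240 and 347 counts. Of 20 genes of uptake, sterol esters and intracellular transport that passed the filter, TMEM97, a sterol-responsive membrane protein, was lowest, at −0.70 from 1210 and 782 counts. VLDLR, a lipoprotein receptor, was highest, at 0.34, and the median was −0.11.

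Among LXR receptors, other LXR targets and oxysterol enzymes, 10 of 16 genes passed the filter, with a median of 0.05 and a wide range. APOC1, an apolipoprotein, was lowest, at −1.05 from 167 and 84 counts. PLTP, the phospholipid transfer protein, was highest, with 5 counts in shCON and 125 in shUSP12. PLTP passed the filter on low values through shUSP12, where it was high.

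Fatty acid synthesis, which SREBP-1 drives, is the pathway most like this one, and 13 of its 14 genes passed the filter. Of these, 11 lay below 0 and 3 were called lower at 2-fold, with a median of −0.60 beside −0.66 for the sterol enzymes. The lowest was FADS2, a desaturase, at −1.70 from 13461 and 4347 counts, below every sterol gene, and the highest was GPAM, an acyltransferase, at 0.50 from 234 and 347 counts. The difference between the pathways was not tested.

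**Figure D4:**
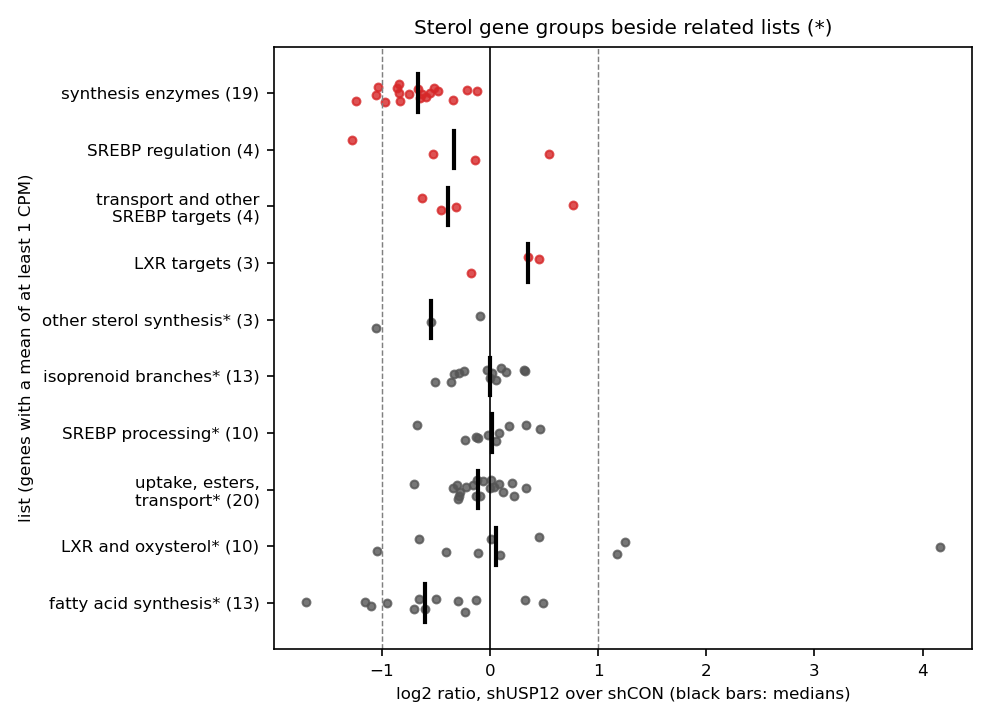
Log2 ratio of shUSP12 over shCON for each gene with a mean of at least 1 CPM, by group, with the number of genes in brackets, black bars for medians and dashed lines at 2-fold. The sterol groups are in red and the related lists, marked with an asterisk, in grey, and the synthesis enzymes lie wholly below 0 with a median of −0.66.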

How the data were processed

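Whole-number fragment counts per gene, as deposited by the authors without normalisation, were used for 2 libraries of H1944 cells, 1 per group. Per the labels and methods, stranded mRNA libraries were aligned to GRCh38 with HISAT2 2.0.4. The methods name Stringtie for counting, whereas the submitters' processing notes list HTSeq 0.6.0 and Trimmomatic. The annotation release is not given in the sources used here. Per the methods, only fragments with a unique position were counted, so genes with close copies can be undercounted. From each library, 91 lines without a count were dropped.

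Counts were scaled to CPM with TMM factors of 0.955 for shCON and 1.05 for shUSP12 (edgeR 4.0.16 in R 4.3.3). Log2 ratios were taken after adding 0.1 CPM, which understates changes of low genes, and rows were kept where the mean over both libraries reached 1 CPM. Intervals are exact Clopper-Pearson intervals without a pseudocount, and those of ratios between genes rest on Poisson standard errors. They cover counting error only, since no molecular identifiers told copies of a molecule apart. TPM used the union of exons in GENCODE release 44, where 99.1% of Ensembl identifiers were found. Scripts ran in Python 3.11.15 with SciPy 1.17.1 and were tested on simulated data. Named genes were the 30 sterol genes, USP12, and the lowest and highest gene of each related list, of which 1 is not reported here. Marker genes and genes that overlap or adjoin a sterol gene were named besides, the latter after their values were seen. For a symbol with several rows, the most abundant was taken. Members and lists were chosen with earlier results of these data known. Alternatives were other scalings, pseudocounts, filters, thresholds and lengths.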

Additional observations from a re-analysis of the deposited data

How the results depend on the processing

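No paired analysis was possible because neither group held more than 1 library. Scaling to total counts alone left 2 of the 30 genes at least 2-fold lower (INSIG1 and MVD) against 4, moved the median of the synthesis enzymes to −0.53 and reversed PMVK, to 0.010. That value of PMVK still lay within its counting interval with TMM, from −0.26 to 0.02. Total counts moved 16 other genes past their counting interval without a change of sign, and 21 intervals in place of 24 lay below 0. With total counts the median of all rows was 0.12. The 2-fold and interval shares of all rows given above are for TMM and do not apply to these counts. A 1.5-fold threshold gave 15 genes lower and 1 higher, or 3 higher with total counts. That count and the shares of rows at 20 CPM or more were chosen after seeing the data. DESeq2 size factors, upper quartile factors, pseudocounts of 0.01 and 1 CPM, no filter and a mean of at least 5 CPM kept the count of 2-fold lower genes between 4 and 5, that of 2-fold higher genes at 0 and that of genes below 0 at 26. Among the 30 single ratios, upper quartile factors moved NPC1 past its interval, to −0.67, and the other settings named here moved none. Leaving out the rows read in 1 library, an alternative chosen after seeing the data, changed none of these counts. The median of the LXR targets lay between 0.21, for the mean in place of the median, and 0.49. With the longest transcript in place of the union of exons, FDFT1 rather than SQLE was highest in both libraries. FDFT1 had 543 TPM in shCON and 332 TPM in shUSP12, and SQLE had 506 and 314 TPM. In shCON, MYLIP was still lowest and 8 of the 30 genes kept their rank (Spearman rho 0.96 between the lengths). The ranks given above are for the union of exons. With 1 library per group, the spread between cultures is not known.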
